A study of Mus musculus with 20 samples.

Results

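The transcripts described here are those of 10 genes of the NRF2 pathway and of antioxidant defence in BV-2 microglia: the transcription factor gene Nfe2l2, the target genes Hmox1, Nqo1, Gclm, Gclc, Slc7a11, Txnrd1, Srxn1 and Prdx1, and the mitochondrial superoxide dismutase gene Sod2. They were chosen by name from the 55487 Ensembl gene identifiers of the count matrix, with earlier results of these data known. Their shares set beside those of all genes are therefore descriptions and not independent support. All 10 were found and passed the filter on low counts, Nqo1 mainly through its LPS libraries. BV-2 is an immortalised microglial cell line from brain cultures of C57BL/6 mice, and the paper names no genetic change between the groups. RNA was sequenced from 4 groups of 5 cultures: young BV-2 microglia, the low-passage controls, and aged BV-2 microglia, obtained by long-term cultivation of the same line, each left untreated or exposed to 100 ng/ml lipopolysaccharide (LPS), a bacterial ligand of Toll-like receptor 4, for 6 hours. Per the paper, the aged cells started from a later passage than the controls, grew for more than 100 days and were frozen as aliquots. Whether the aged cultures stem from separate long-term cultures is not stated. Ageing and drift of a long-term culture therefore cannot be told apart. Ageing here is that of a cell line in a dish, without other cells of the brain. P-values measure the spread between cultures of that line.

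NRF2, the product of Nfe2l2, is held in the cytoplasm and marked for degradation by KEAP1 as long as the cell is unstressed. Oxidants and electrophiles modify KEAP1, NRF2 then accumulates in the nucleus and binds, with a small MAF protein, to antioxidant response elements (AREs), whereas BACH1 competes for the same elements. Its targets rebuild glutathione, reduce thioredoxin and peroxiredoxins, break down haem and reduce quinones, and in macrophages and microglia the pathway is known to restrain inflammatory activation. Because NRF2 is controlled largely through its stability, the level of its mRNA does not give its activity. Sod2, which turns superoxide into hydrogen peroxide in mitochondria, is also a classical target of NF-kappaB, the main transcription factor downstream of Toll-like receptor 4.

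Sequences upstream of the genes are shown first, because most of these genes are described as direct NRF2 targets. RefSeq promoter windows on GRCm38.p6, each reaching from 250 bases before to 50 bases after an annotated start, were at hand for 8 of the 10 genes, all but Hmox1 and Gclc. The ARE core TGACNNNGC was searched on both strands, and 5 of the 8 genes held it (Nfe2l2, Gclm, Txnrd1, Srxn1 and Prdx1), against 14.0% of the 27025 genes with such windows. The stretches around the core in the 4 genes where it lies before the start are printed below in the orientation of the core, which is in capitals, so that they can be read against each other. They come from chr2:75704885-75704913 for Nfe2l2, chr3:122245413-122245441 for Gclm, chr10:82859104-82859132 for Txnrd1 and chr4:116685456-116685484 for Prdx1, all read on the minus strand of the chromosome.
Nfe2l2: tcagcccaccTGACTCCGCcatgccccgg
Gclm: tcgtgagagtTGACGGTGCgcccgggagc
Txnrd1: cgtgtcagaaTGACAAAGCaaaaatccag
Prdx1: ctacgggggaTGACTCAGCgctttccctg

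The Prdx1 core lies 133 bases before the start and that of Gclm 134 bases before it. The Txnrd1 core lies 92 bases before the second of 3 annotated starts, and the Nfe2l2 core 240 bases before its start. In Srxn1 the core TGACCTAGC lies just after the start. The letters GGGANTTTC, the beginning of an NF-kappaB site, were found in none of the 8 genes and in 1.29% of all genes. Slc7a11 had the largest response to LPS of the 10 genes and neither motif in its window. Its 250 bases before the start, on the minus strand at chr3:50443614-50443863, are given for comparison with the others. A match is a description of the letters and not of binding, and elements farther from the start were not searched.
Slc7a11: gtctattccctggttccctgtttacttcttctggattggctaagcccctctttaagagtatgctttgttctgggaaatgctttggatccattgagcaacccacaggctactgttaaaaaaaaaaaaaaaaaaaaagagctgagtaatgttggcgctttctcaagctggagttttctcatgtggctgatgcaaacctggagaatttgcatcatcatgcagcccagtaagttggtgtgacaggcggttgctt

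The 20 libraries held 11371508 to 16829292 counts, of which mitochondrial genes took 0.517% to 1.30%. All 12 microglia and macrophage markers examined were above 3 counts in every untreated library, and 10 of 12 in the LPS groups, where Cx3cr1 and P2ry12 were at or near 0. Summed markers reached at most 0.393 CPM for neurons, 0.673 CPM for astrocytes, 1.96 CPM for oligodendrocytes (Mog at 0) and 1.22 CPM for fibroblasts, the last carried by Pdgfrb in the LPS groups. The endothelial markers summed to 313 to 386 CPM, nearly all of it Flt1 (302 to 373 CPM) and Vwf (8.98 to 18.9 CPM), while Cldn5 and Tek were at 0 throughout. In bulk RNA, fewer cells that express a gene and less of its RNA per cell cannot be told apart. Replicate numbers 1 to 5 are batch numbers in the labels, so every batch contributed 1 culture to each of the 4 groups.

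A pair of LPS-treated cultures stood apart in these genes and is named before the results that rest on it. Young LPS culture 1 was the lowest of the 5 young LPS cultures for 7 of the 10 genes (Hmox1, Gclm, Gclc, Slc7a11, Txnrd1, Srxn1 and Prdx1) but the highest for Sod2. Aged LPS culture 3 was the lowest of its group for 8 of the 10 genes, all except Nfe2l2 and Sod2, and again the highest for Sod2. Over all 12799 genes tested, the same libraries were the lowest of their group for 26.96% and 27.42% of genes and the highest for 27.78% and 25.13%. Over 812 other genes induced in both ages, the median log2 induction was 1.99 in young LPS culture 1, within the 1.85 to 2.07 of its group. It was 1.73 in aged LPS culture 3, the highest of its group, in which the lowest was 1.51. Young LPS culture 1 was the lowest of its group for 25.49% of these 812 genes (5.172% to 44.7% over the young LPS cultures). Aged LPS culture 3 was the lowest for 15.76% of them (12.56% to 31.65% over the aged LPS cultures). Young LPS culture 1 was also the library with the fewest counts (11371508) and the lowest mitochondrial share, and aged LPS culture 3 had 15251546 counts. What part depth or culture conditions have in this was not tested. Aged untreated culture 3, from the same batch as aged LPS culture 3, was the lowest of its group for 9 of the 10 genes, by smaller margins. Young untreated culture 3, also of that batch, was the lowest of its group for 6 of the 10.

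**Figure D1:**
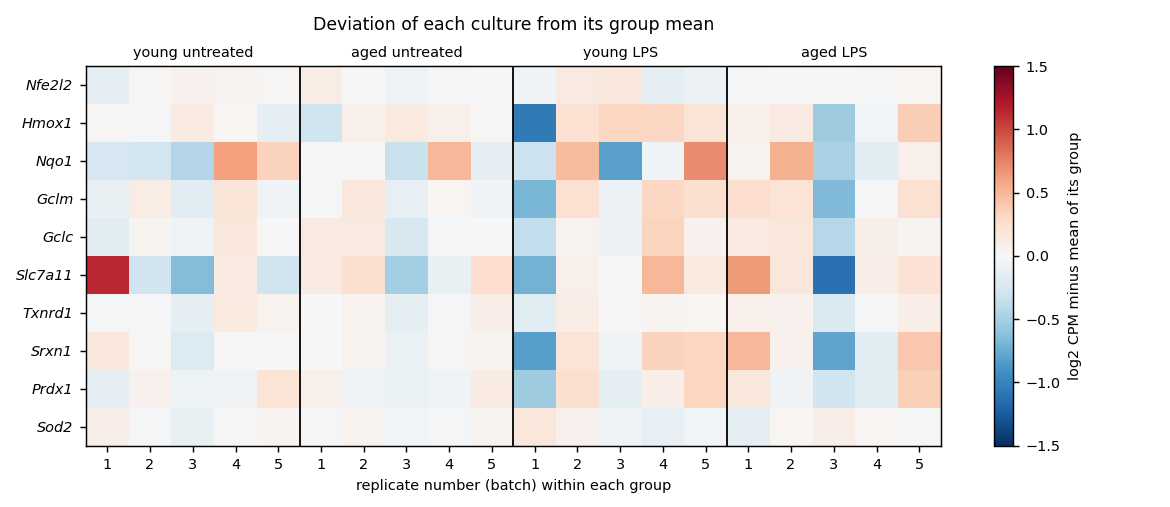
Deviation of each culture from the mean of its group, in log2(CPM + 0.5), for the 10 genes (lines) and the 20 cultures (columns, replicate number 1 to 5 within each group). Blue cells lie below and red cells above the group mean. The darkest blue columns are young LPS culture 1 and aged LPS culture 3, in which Hmox1, Gclm, Slc7a11 and Srxn1 are low together while Sod2 is not.

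Without LPS, the levels of these genes were set in the same order at both ages. Per length, in TPM (counts scaled by exon length and by library total), Prdx1 was the most abundant at 597.6 ± 53.5 in young and 592.6 ± 35.1 in aged microglia (SD, n = 5), followed by Hmox1 (320.7 ± 26.8 and 340.4 ± 38.7 TPM) and Nfe2l2 (243.8 ± 17.1 and 230.3 ± 11.8 TPM). Txnrd1 and Srxn1 did not differ beyond their spread, at 171.3 and 168.2 TPM in young microglia. Gclc, Gclm and Sod2 came next at 123.1, 72.9 and 55.2 TPM. Slc7a11 was low at 6.42 TPM, and Nqo1 was close to absent at 0.682 TPM, with 1 to 10 counts per untreated library. Lengths were taken over all annotated exons, which understates the TPM of genes with long alternative ends such as Slc7a11 and Sod2.

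Under LPS the order changed. Hmox1 stood at the top, at 1594 ± 501 TPM in young and 1165 ± 240 TPM in aged microglia, overlapping with Prdx1 (1328 ± 290 and 932.3 ± 161 TPM) and, next in order, Srxn1 (861.4 ± 247 and 675.8 ± 213 TPM). Slc7a11 reached 149.1 ± 43.9 TPM in young microglia, the level of Gclm (148.4 ± 38.0 TPM), whereas Gclc fell to 64.5 ± 12.4 TPM. Nqo1, often used as the indicator gene of NRF2 activity, remained the least abundant at 2.41 ± 1.36 TPM.

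**Figure D2:**
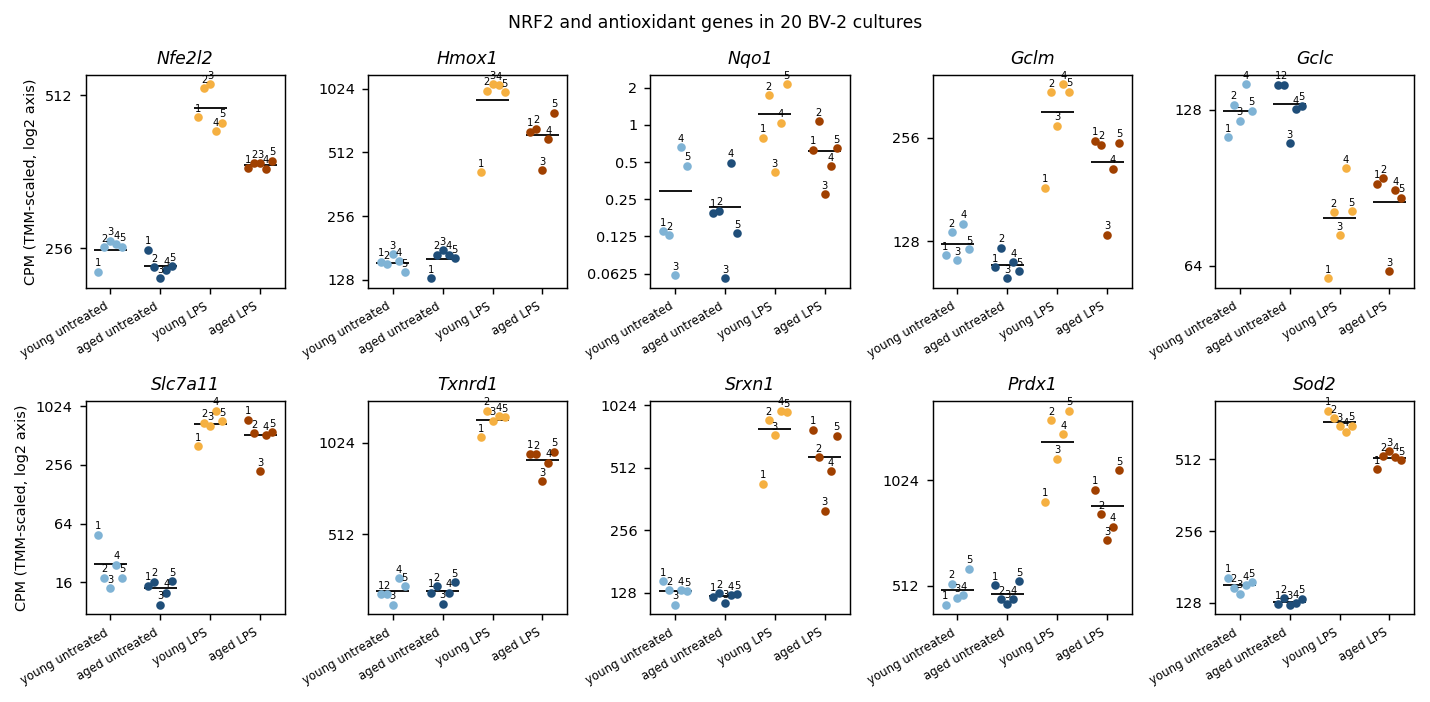
Level of each gene in every culture, in CPM (counts scaled to the TMM-adjusted library size) on a log2 axis with its own range per panel; points are cultures numbered by replicate and lines are group means (n = 5). With LPS the group means of 9 of the 10 genes sit above the untreated ones at both ages and that of Gclc below them, and for Nfe2l2, Txnrd1 and Sod2 no aged LPS culture reaches the lowest young LPS culture.

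The first comparison sets aged against young microglia in the absence of LPS. Sod2 was the only gene of the 10 to pass the test (edgeR quasi-likelihood F-test, Benjamini-Hochberg adjusted p below 0.05 over 12799 genes). Its level was 163.0, 148.4, 139.9, 151.6 and 156.3 CPM in young cultures 1 to 5, and 126.6, 134.0, 125.8, 127.9 and 133.2 CPM in the aged ones. No aged culture reached the lowest young one, and Sod2 was lower in the aged culture of 5 of 5 batches, with a log2 fold change of -0.23 ± 0.06 (SE, adjusted p = 0.0103). Among all genes 11.5% were called in this comparison and 7.81% were lower in aged microglia, so that 1 of 10 is about the background, as it is for groups without overlap (10.4% of all genes).

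Nfe2l2 itself lay at 230 to 265 CPM in young and 223 to 254 CPM in aged cultures, and the groups overlapped (log2 fold change -0.11 ± 0.06, adjusted p = 0.242). For Txnrd1 the difference was 0.00 ± 0.07 and for Gclc 0.04 ± 0.11 on the log2 scale. Hmox1 (0.06 ± 0.18), Prdx1 (-0.04 ± 0.13), Srxn1 (-0.08 ± 0.19) and Gclm (-0.21 ± 0.16) did not pass the test either. The median difference over the 10 genes was -0.09, beside -0.01 over all genes tested.

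Slc7a11, the cystine transporter subunit that supplies cysteine for glutathione, had the largest difference with appreciable counts. It measured 49.3, 18.0, 13.9, 24.3 and 17.9 CPM in young untreated cultures 1 to 5 and 14.9, 16.3, 9.48, 12.6 and 16.4 CPM in aged ones. Young culture 1 alone was above 25 CPM, young cultures 2, 4 and 5 lay above the highest aged culture, and young culture 3 lay within the aged range. The aged culture was the lower one in 5 of 5 batches. The log2 fold change was -0.83 ± 0.34 (adjusted p = 0.118), and without young untreated culture 1 it was -0.42 (adjusted p = 0.450).

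The second comparison concerns the response to LPS. In young microglia all 10 genes passed the test, 9 of them higher and 1 lower, and for 9 of them the treated and untreated groups did not overlap. LPS changed much of the transcriptome, so this count has to be read against a background of 64.6% of all genes called (31.2% higher, 33.5% lower) and 49.1% without overlap. Nqo1, called higher, passed the filter on low counts mainly through LPS libraries, so its rise is no independent support. In aged microglia 9 genes passed, 8 higher and 1 lower, against a background of 54.4% (27.5% higher, 26.9% lower), and again 9 genes did not overlap, against 40.1%. The median log2 change of the 10 genes was 1.96 in young and 1.43 in aged microglia, while the medians over all genes tested were -0.01 and 0.00. The direction was the same in 5 of 5 batches for every gene and both ages except Nqo1 in aged microglia, where it held in 4 of 5. The 2 ages have different untreated cultures and are described side by side.

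**Figure D3:**
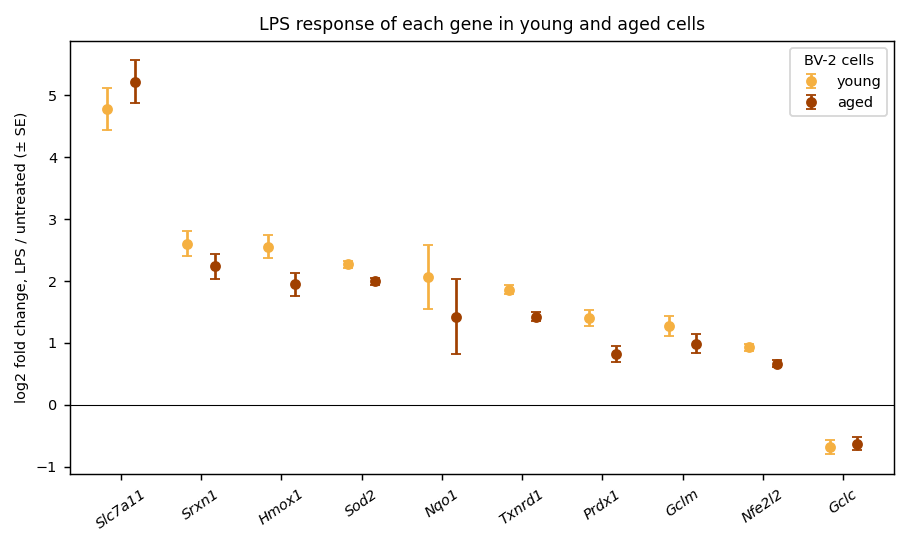
Log2 fold change of LPS-treated against untreated cultures for each of the 10 genes, in young (orange) and aged (brown) microglia, with standard errors from the fit (n = 5 cultures per group). Slc7a11 has the largest change, Gclc is the one gene below 0, and the aged value is the lower of the pair for all genes with a rise except Slc7a11.

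The regulator rose least among the genes that rose. Nfe2l2 was at 463, 528, 539, 435 and 453 CPM in young LPS cultures 1 to 5, above all young untreated ones, a log2 fold change of 0.93 ± 0.06 (adjusted p = 1.74e-12). In aged LPS cultures it was at 368, 376, 376, 367 and 381 CPM, the tightest group of all (SD 5.97 CPM), and the log2 fold change was 0.66 ± 0.06 (adjusted p = 1.08e-09). Its level in young LPS culture 1 and aged LPS culture 3, in which its described targets were low, was in the middle of the respective group.

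The genes of glutathione supply went different ways. Slc7a11 rose to 398, 689, 643, 922 and 722 CPM in young LPS cultures and to 745, 541, 219, 515 and 555 CPM in aged ones. Every treated culture was above every untreated one. The log2 fold changes were 4.78 ± 0.33 in young (27.5-fold, adjusted p = 2.15e-11) and 5.22 ± 0.35 in aged microglia (37.2-fold, adjusted p = 1.76e-11), the largest of the 10 genes at both ages.

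Gclm and Gclc encode the modifier and the catalytic subunit of glutamate-cysteine ligase, the enzyme that makes the first step of glutathione synthesis. Gclm rose, from 112 to 144 CPM in young untreated cultures to 183, 347, 277, 366 and 348 CPM with LPS (log2 fold change 1.27 ± 0.16, adjusted p = 3.04e-07), and in aged cultures from 99.7 to 122 CPM to 251, 244, 134, 208 and 247 CPM (0.99 ± 0.16, adjusted p = 1.58e-05). Gclc fell at both ages, in young microglia from 113, 131, 122, 143 and 127 CPM to 60.5, 81.0, 73.3, 98.6 and 81.4 CPM. The log2 fold change of Gclc was -0.69 ± 0.11 in young (adjusted p = 1.24e-05) and -0.62 ± 0.11 in aged microglia (adjusted p = 5.65e-05). Treated and untreated cultures did not overlap for either subunit.

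The balance between both subunits therefore shifted towards Gclm. Which of them exceeds the other depends on the exon lengths used (3766 bases for Gclc, 6291 for Gclm). In CPM, young untreated cultures had 113 to 143 for Gclc and 112 to 144 for Gclm. As a ratio of TPM, Gclc to Gclm was 1.69 ± 0.0861 in young untreated cultures (SD, n = 5) and 0.445 ± 0.0658 with LPS, and 2.00 ± 0.149 and 0.668 ± 0.0796 in aged ones. The ratios of the 4 groups did not overlap: the highest young LPS value was 0.552, the aged LPS values ran from 0.585 to 0.780, the young untreated ones from 1.61 to 1.81 and the aged untreated ones from 1.85 to 2.23. This ratio was looked at after the values were seen and carries no test. Up to 5.03% of the Gclm counts had a counterpart in counts of Gm17494, a transcript on the opposite strand that shares 296 exon bases with it.

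**Figure D4:**
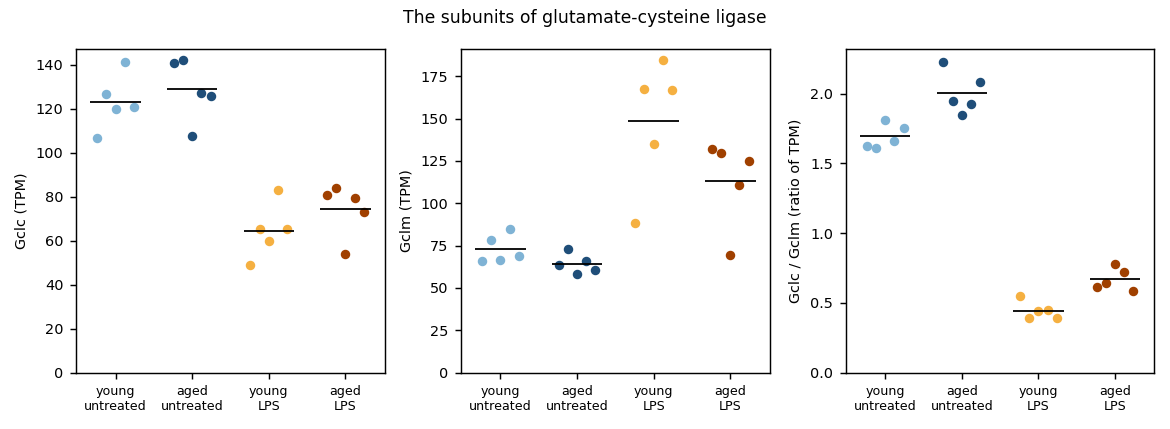
Levels of Gclc and Gclm in TPM and their ratio in every culture (points, cultures 1 to 5 from left to right within each group; lines, group means). With LPS the catalytic subunit Gclc falls while the modifier Gclm rises, and the ratio moves from between 1.61 and 2.23 to between 0.390 and 0.780.

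In haem breakdown and quinone reduction, Hmox1 and Nqo1 had very different levels. Hmox1, which encodes the inducible haem oxygenase, was at 139 to 169 CPM in young untreated cultures and at 412, 1002, 1076, 1066 and 984 CPM with LPS. Culture 1 lay far below the other 4 young LPS cultures. The log2 fold change was 2.56 ± 0.19 (adjusted p = 7.60e-11), and 2.74 without young LPS culture 1. In aged microglia Hmox1 rose from 130 to 177 CPM to 642, 664, 421, 590 and 790 CPM (1.95 ± 0.19, adjusted p = 9.28e-09).

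Nqo1, the quinone reductase, had 1 to 10 counts in untreated libraries and 4 to 29 with LPS. It passed the test in young microglia with a log2 fold change of 2.06 ± 0.51 (adjusted p = 0.00127), although treated and untreated cultures overlapped. In aged microglia the log2 fold change was 1.43 ± 0.60 and the adjusted p of 0.05002 was just above the threshold. With the batch as a block the adjusted p was 0.0127, by DESeq2 it was 0.0432, and without aged LPS culture 3 it was 0.0292. Without young LPS culture 1 it was 0.0509, and without young untreated culture 1 0.0521. Because Nqo1 passed the filter on low counts mainly through LPS libraries, none of these values is independent support for a rise.

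The genes of thiol and peroxide reduction all rose. Txnrd1, the cytosolic thioredoxin reductase, was the steadiest: 301 to 368 CPM in young untreated cultures became 1067, 1304, 1208, 1249 and 1240 CPM (log2 fold change 1.86 ± 0.07, adjusted p = 3.80e-16), and 303 to 358 CPM in aged ones became 942, 937, 766, 880 and 955 CPM (1.43 ± 0.07, adjusted p = 5.01e-14). Srxn1, sulfiredoxin, which repairs over-oxidised peroxiredoxins, rose by 2.6 ± 0.20 in young and 2.24 ± 0.20 in aged microglia on the log2 scale (adjusted p = 1.30e-10 and 2.49e-09). Its substrate Prdx1, the most abundant of the 10 genes without LPS, rose by 1.40 ± 0.13 and 0.83 ± 0.13 (adjusted p = 2.96e-09 and 1.08e-05). For Srxn1 the spread between LPS cultures was wide, from 430 to 968 CPM in young and 319 to 781 CPM in aged microglia, yet no treated culture reached the untreated range.

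Sod2 rose to 821, 763, 707, 670 and 709 CPM in young LPS cultures and to 467, 528, 554, 526.3 and 509 CPM in aged ones. The log2 fold changes were 2.27 ± 0.06 (adjusted p = 1.27e-18) and 2.00 ± 0.06 (adjusted p = 1.39e-17). Young LPS culture 1 and aged LPS culture 3, low in most of the other genes, were the highest of their groups here.

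The third comparison sets aged against young microglia under LPS. Of the 10 genes 6 passed the test, all lower in aged cells, against 29% of all genes called and 15% called lower. The groups did not overlap for 3 of them (Nfe2l2, Txnrd1 and Sod2), against 14.8% of all genes. The median log2 difference was -0.47, beside 0.01 over all genes tested. Sod2 was lower by a log2 fold change of -0.51 ± 0.06 (adjusted p = 8.55e-07), Nfe2l2 by -0.37 ± 0.06 (adjusted p = 2.83e-05) and Txnrd1 by -0.44 ± 0.07 (adjusted p = 3.22e-05), each in 5 of 5 batches. These 3 and Prdx1 kept their call under all alternatives run.

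Prdx1 ranged from 889 to 1617 CPM in young and from 691 to 1094 CPM in aged LPS cultures, and was lower in the aged culture of 4 of 5 batches (-0.61 ± 0.13, adjusted p = 0.000998). Hmox1 (-0.55 ± 0.18, adjusted p = 0.0263) and Gclm (-0.49 ± 0.16, adjusted p = 0.0216) passed with overlapping groups, and without aged LPS culture 3 Hmox1 was at -0.44 with an adjusted p of 0.0658. The Hmox1 call was also lost without batch 2, 3 or 4 (adjusted p = 0.118 to 0.168), and the Gclm call without batch 2, 3, 4 or 5 (adjusted p = 0.0532 to 0.128). Srxn1 was at -0.45 ± 0.19 (adjusted p = 0.0830). It was at -0.60 (adjusted p = 0.00718) without young LPS culture 1 and at -0.29 (adjusted p = 0.189) without aged LPS culture 3. Both cultures were left out after seeing the data, so the Srxn1 difference depends on which culture is dropped. Nqo1 was at -1.0 ± 0.46 (adjusted p = 0.109, and 0.0410 with the batch as a block) and Gclc at 0.10 ± 0.11. Slc7a11 was at -0.39 ± 0.28 (adjusted p = 0.325). Without batch 1 Slc7a11 was at -0.70 (adjusted p = 0.0210), and without aged LPS culture 3 at -0.20 (adjusted p = 0.593).

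Batch 1 differed from the others in this comparison. In batches 2 to 5, 9 or 10 of the 10 genes were lower in the aged than in the young LPS culture. In batch 1, which holds young LPS culture 1, only 4 genes were lower (Nfe2l2, Nqo1, Txnrd1 and Sod2) and 6 were higher. In log2(CPM + 0.5), the Hmox1 difference was 0.64 in batch 1 and between -1.35 and -0.32 in the other 4, and that of Srxn1 was 0.86 and between -1.20 and -0.38. Sod2 went the other way, with its greatest difference, -0.81, in batch 1 and between -0.53 and -0.35 elsewhere. Leaving out both young LPS culture 1 and aged LPS culture 3, a setting added after seeing the data, 7 of the 10 genes were called. Shares over all genes were not taken within batches or in this setting, so these counts are descriptions only.

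Whether the response to LPS itself differed with age was tested as the interaction, the log2 response of aged minus that of young microglia. It was called for 3 of the 10 genes, all with the smaller response in aged cells, against 6.39% of all genes called and 2.27% called lower. The difference was -0.44 ± 0.09 for Txnrd1 (adjusted p = 0.00661), -0.28 ± 0.08 for Sod2 (adjusted p = 0.0375) and -0.27 ± 0.08 for Nfe2l2 (adjusted p = 0.0459), each negative in 5 of 5 batches. The Sod2 and Nfe2l2 calls were lost when any one batch was left out, and the Txnrd1 call when batch 2 was left out (adjusted p = 0.0926). Leaving out young untreated culture 1 alone ended the Nfe2l2 call (adjusted p = 0.0827), and leaving out young LPS culture 1 alone that of Sod2 (adjusted p = 0.0632).

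For Prdx1 the difference in response was -0.57 ± 0.18 (adjusted p = 0.0649), and with the batch as a block -0.57 with an adjusted p of 0.0195. Without young LPS culture 1 it was -0.68 (adjusted p = 0.00736). Without aged LPS culture 3 it was -0.50 (adjusted p = 0.0871), and without young untreated culture 1 -0.54 (adjusted p = 0.1075). For Hmox1 it was -0.61 ± 0.26 (adjusted p = 0.186). Without young LPS culture 1 the Hmox1 value was -0.79 (adjusted p = 0.00423), and without aged LPS culture 3 -0.50 (adjusted p = 0.245). These cultures were singled out after the values were seen, and young LPS culture 1 was the lowest of its group for both genes. The values without them are therefore descriptions only. Slc7a11 stood on the other side of 0 at 0.44 ± 0.44, and without young untreated culture 1 at 0.03. For Gclc the responses differed by 0.06 ± 0.16. A test that misses the threshold does not show equal responses.

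Around these 10 genes, 104 others of the pathway were taken in 7 lists, also with earlier results of these data known. Of these others, 93 passed the filter on low counts. With LPS 41 were higher and 22 lower in young microglia (44.1% and 23.7%, beside 31.2% and 33.5% of all genes), and 39 and 17 in aged ones (41.9% and 18.3%, beside 27.5% and 26.9%). The medians were 0.08 and 0.06 on the log2 scale, close to those of all genes. Scaled by library sizes alone, which moves the median of all genes down, 34 were higher and 42 lower in young and 26 and 34 in aged microglia. Between ages without LPS, 14 list genes were lower in aged microglia and 1 was higher, against 7.81% and 3.71% of all genes, and with the batch as a block 24 were lower and 3 higher. Under LPS 25 were lower and 5 higher, against 15% and 14% of all genes.

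**Figure D5:**
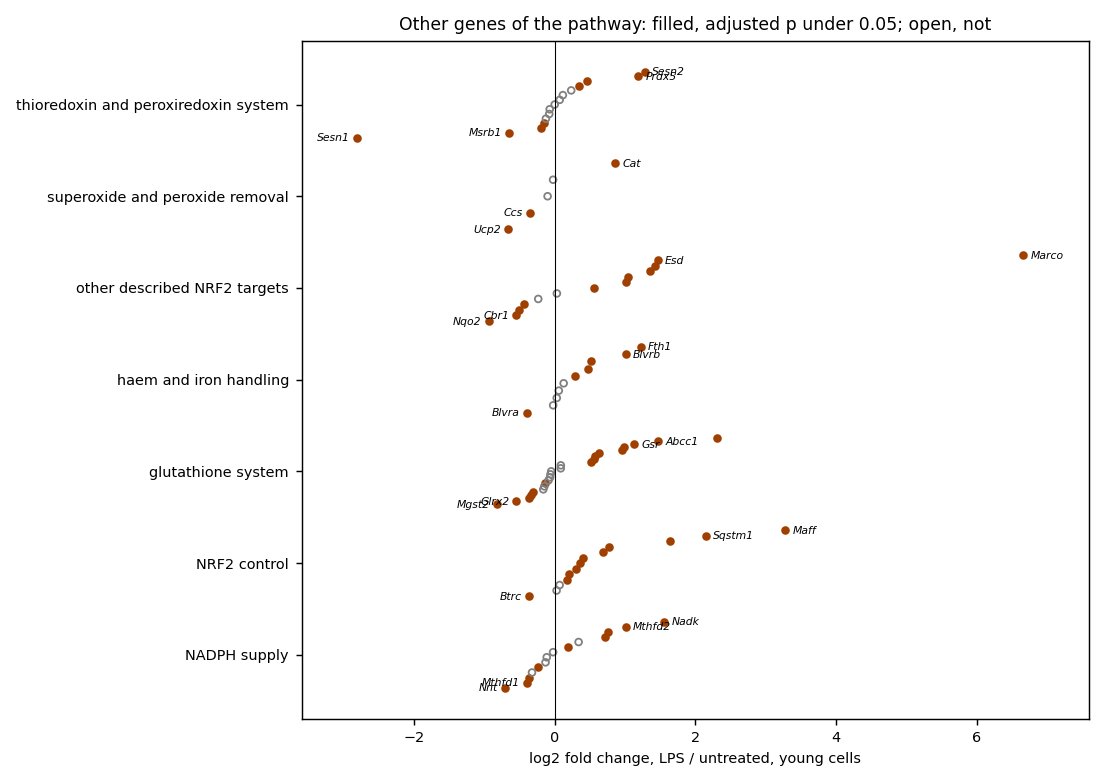
Log2 fold change of LPS-treated against untreated young microglia for the 93 other pathway genes tested, by list; filled points have an adjusted p below 0.05 and open ones do not, and the named genes are labelled. The genes of NRF2 control lie mostly above 0, from Btrc at -0.37 to Maff at 3.28, while the other lists hold called genes on both sides.

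Among the 13 genes of NRF2 control, 10 rose and 1 fell at either age (76.9% and 7.69%), beside 31.2% and 33.5% of all genes in young and 27.5% and 26.9% in aged microglia. With library sizes alone 6 rose and 2 fell in young and 5 and 1 in aged microglia. The small MAF partners of NRF2 all rose in young microglia: Maff by 3.28 ± 0.18, from 4.34 ± 1.04 to 41.9 ± 8.05 CPM (SD, n = 5, adjusted p = 2.59e-13), Mafk by 1.64 ± 0.06 (adjusted p = 9.60e-16) and Mafg by 0.69 ± 0.10 (adjusted p = 1.54e-06). In aged microglia they rose by 3.17, 1.19 and 0.62. From here on, values in pairs are log2 fold changes with LPS in young and then in aged microglia. The response of Mafk was the smaller in aged cells by a log2 difference of -0.45 ± 0.09 (adjusted p = 0.00336), the only gene of this list called in the interaction.

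The inhibitors rose too. Keap1 went from 60.0 ± 2.57 to 78.9 ± 6.89 CPM in young microglia (0.39 ± 0.06, adjusted p = 5.54e-06) and from 56.4 ± 4.30 to 63.1 ± 2.78 CPM in aged ones (0.16 ± 0.06, adjusted p = 0.0276). Bach1, the competitor at AREs, rose by 0.35 ± 0.09 and 0.30 ± 0.09 (adjusted p = 0.00133 and 0.00676). Scaled by library sizes alone, Keap1 in aged microglia was at 0.00 (adjusted p = 0.975) and Bach1 at 0.14 at both ages (adjusted p = 0.199 and 0.202), so these smaller rises depend on the scaling. Sqstm1, whose product p62 binds KEAP1, rose by 2.15 and 1.75 (adjusted p = 1.70e-12 and 9.42e-11). Btrc, an adaptor of the ubiquitin ligase that acts on phosphorylated NRF2, fell (-0.37 and -0.32). Under LPS 5 genes of this list were lower in aged microglia (38.5%, beside 15% of all genes). They were Keap1 (-0.32), Bach1 (-0.26), Mafk (-0.43), Sqstm1 (-0.55) and the coactivator gene Ep300 (-0.19). The count was 8 without young LPS culture 1, left out after seeing the data, and 3 with library sizes alone. Shares over all genes were not taken for these settings. Without aged LPS culture 3 the Bach1 difference was -0.21 (adjusted p = 0.0818), and with library sizes alone Bach1 and Ep300 did not pass (adjusted p = 0.134 and 0.122).

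In the glutathione system 9 of 23 genes rose and 6 fell in young microglia (39.1% and 26.1%), and 7 and 4 in aged ones (30.4% and 17.4%), shares not far from those of all genes (31.2% and 33.5%, 27.5% and 26.9%). Abcc1, an exporter of glutathione conjugates, rose by 1.47 and 1.14 (adjusted p = 9.96e-17 and 1.16e-14) and Gsr, glutathione reductase, by 1.12 and 0.94. The microsomal glutathione transferase Mgst2 fell (-0.83 and -0.62), as did the mitochondrial glutaredoxin Glrx2 (-0.55 and -0.49). Without LPS, Mgst1 (-0.74, adjusted p = 0.000138) and Mgst3 (-0.45, adjusted p = 0.00596) were lower in aged microglia. Gstp1 was higher by 0.20, but it has a near-identical copy, Gstp2, with which it may share reads.

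Of the 15 genes of the thioredoxin and peroxiredoxin system, 4 rose and 4 fell in young microglia and 4 and 3 in aged ones, which for both directions and ages is below the share over all genes (31.2% and 33.5%, 27.5% and 26.9%). The sestrins moved apart: Sesn2 rose by 1.28 in young and 1.48 in aged microglia (adjusted p = 0.000226 and 5.71e-05), and Sesn1 fell, with log2 fold changes of -2.81 and -2.37 (adjusted p = 3.90e-16 and 1.00e-14). Prdx5, a peroxiredoxin found in mitochondria and other compartments, rose by 1.18 and 0.79. Msrb1, a methionine sulfoxide reductase, fell (-0.65 and -0.47). Without LPS, Msrb1 (-0.68) and Sesn1 (-0.39) were lower in aged than in young microglia.

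Of 5 genes tested for superoxide and peroxide removal, the catalase gene Cat rose by 0.86 and 0.84 and was lower in aged microglia both without LPS (-0.27, adjusted p = 0.0370, and 0.0628 without young untreated culture 1) and with it (-0.28, adjusted p = 0.0106). Both of these Cat calls were lost with library sizes alone (adjusted p = 0.0632 and 0.0624). Ucp2, a mitochondrial carrier, fell (-0.66 and -0.46). Ccs, the copper chaperone of the cytosolic superoxide dismutase, fell in young microglia (-0.35, adjusted p = 0.0273, and 0.0749 without young untreated culture 1) and was at -0.28 in aged ones (adjusted p = 0.0871).

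NADPH feeds both reductase systems, and 5 of 14 genes of its supply rose and 4 fell in young microglia (35.7% and 28.6%, beside 31.2% and 33.5% of all genes), 6 and 3 in aged ones (42.9% and 21.4%, beside 27.5% and 26.9%). Nadk, the NAD kinase that makes NADP, rose by 1.56 and 1.54 (adjusted p = 1.72e-17 and 3.25e-17) and the mitochondrial folate enzyme gene Mthfd2 by 1.01 and 0.89. Nnt, the mitochondrial transhydrogenase, fell (-0.70 and -0.61), and so did Mthfd1 (-0.39 and -0.14) and Idh2 (-0.36 and -0.21). Nnt has a pair of Ensembl identifiers, of which the one with more counts was used. Without LPS, Idh2 (-0.30) and Taldo1 (-0.29) were lower in aged microglia.

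In haem and iron handling 5 of 10 genes rose and 1 fell at both ages, beside 31.2% and 33.5% of all genes in young and 27.5% and 26.9% in aged microglia. With library sizes alone 3 rose and 4 fell in young and 2 and 2 in aged cells. Fth1, the heavy ferritin chain that stores the iron set free by haem oxygenase, rose by 1.22 and 1.11 (adjusted p = 3.36e-12 and 3.05e-11). Of the biliverdin reductases, which act after haem oxygenase, Blvrb rose by 1.01 and 0.75, and Blvra fell (-0.40 and -0.30; without aged LPS culture 3 the latter was -0.23 with an adjusted p of 0.0953). Blvrb (-0.70, adjusted p = 0.000947) and the iron exporter gene Slc40a1 (-0.68, adjusted p = 0.0210, and 0.0582 without young untreated culture 1) were lower in aged microglia without LPS.

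Among 13 other described NRF2 targets, 7 rose and 4 fell in young microglia (53.8% and 30.8%, beside 31.2% and 33.5% of all genes), 6 and 4 in aged ones (46.2% and 30.8%, beside 27.5% and 26.9%). The largest change was that of Marco, a scavenger receptor of macrophages, by 6.66 and 6.08. Esd, an esterase, rose by 1.46 and 1.05, and Trib3, a stress-induced pseudokinase, by 1.43 and 2.15. Nqo2, the relative of Nqo1, fell (-0.94 and -0.77), as did the carbonyl reductase gene Cbr1 (-0.54 and -0.36) and the epoxide hydrolase gene Ephx1 (-0.51 and -0.39). Without LPS, Akr1c13 (-0.85, adjusted p = 0.000101) and Ephx1 (-0.32) were lower in aged microglia.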

How the data were processed

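RNA-seq libraries came from 20 BV-2 cultures, 5 in each of 4 groups. Per the labels, total RNA was made into stranded, poly(A)-selected libraries. The submitters' processing notes name STAR 2.6.1d and featureCounts 1.5.1, and the genome was GRCm38. The authors deposited whole-number counts per Ensembl gene without normalization. The settings of featureCounts for strand, multiple alignments and overlapping genes are not given in the sources used here. Symbols (matched for 55141 of 55487 identifiers), positions and exon lengths came from GENCODE M21.

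Group means of all 20 libraries were fitted in 1 model, without other terms, by the quasi-likelihood functions of edgeR 4.0.16 (with limma 3.58.1 under R 4.3.3), after TMM scaling and filterByExpr, which kept 12799 genes. P-values were adjusted by Benjamini-Hochberg over all of these, and the threshold was 0.05. Fold changes are log2 values, and standard errors were obtained from the log2 fold change and its F statistic. CPM used TMM-scaled library sizes, and TPM was computed from the same counts and the union of exons. Within-batch differences used log2(CPM + 0.5). The detection floor was set at 3 counts per library and covers counting error only.

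The replicate number is the batch in the labels, so it was taken to pair the cultures. After the group means were taken off, cultures sharing a number correlated across genes at 0.146 on average over 30 pairs (-0.214 to 0.394). Untreated and LPS cultures correlated at 0.122 to 0.369 in young and 0.182 to 0.394 in aged microglia. Young and aged cultures correlated at -0.0845 to 0.253 without LPS and -0.214 to 0.275 with it. In batch 1 every pair across ages was below 0. Agreement of batches between ages therefore rests on weaker pairing. For the 10 genes, the value with this number as a block stands beside a result where it changes the call. Counts of called list genes also moved with the block, and these are given only for the lists together between untreated ages.

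The members and the 7 lists were chosen with earlier results of these data known. Named genes are the 10 members, Keap1, Bach1, Mafg, Mafk and Maff, and, for each list and for the young LPS, aged LPS and untreated age comparisons, up to 2 genes per direction with the largest called change and a mean of at least 1 log2 CPM. Genes named outside it, for the comparison under LPS, were chosen after their values were seen. Alternatives were DESeq2 (1.42.0), the block, other scalings and filters, only the groups compared, a threshold of 0.01 and each batch left out. Leaving out young untreated culture 1, young LPS culture 1, aged LPS culture 3 or both of the latter was added after seeing the data. The edgeR, DESeq2 and block fits were first tried on simulated counts, with changes planted in the aged LPS group alone. That simulation held no batch effect, and the other scalings and filters were not tried on it. Python 3.11.15 with numpy 2.4.6, pandas 2.3.3 and matplotlib 3.10.9 served for tables and plots.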

Additional observations from a re-analysis of the deposited data

Results flagged for a closer look

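Of 40 groups of 5 values (10 genes in 4 groups), 3 held a culture far from the other 4 by Dixon's criterion, of which chance gives about 1 in 20. Nfe2l2 was at 230.2 CPM in young untreated culture 1, with the other 4 at 257 to 265 CPM. Hmox1 was at 412 CPM in young LPS culture 1, with the others at 984 to 1076 CPM. Gclc was at 62.43 CPM in aged LPS culture 3, with the others at 86.5 to 94.4 CPM.

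The responses of aged and young microglia to LPS differed in the test of the interaction for Nfe2l2 (log2 difference -0.2664), Txnrd1 (-0.4368) and Sod2 (-0.2759), as given above with their errors and adjusted p-values.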

How the results depend on the processing

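The 10 calls of the young LPS response held under all alternatives that tested all 10 genes; a minimum of 10 counts in every library drops Nqo1. No result changed sign among the called genes. Of the genes, aged minus young without LPS gave 2 calls with no filter on low counts and without both young LPS culture 1 and aged LPS culture 3, Slc7a11 joining Sod2, and 0 at a threshold of 0.01. Aged minus young under LPS gave 4 to 8 calls with 1 batch or 1 library left out, and 4 with library sizes alone or with only the groups compared, where the Hmox1 and Gclm calls were lost. The interaction gave 0 to 4 calls with 1 batch or 1 library left out, 1 with library sizes alone or at 0.01, 2 with no filter or without young untreated culture 1, and 5 without both young LPS culture 1 and aged LPS culture 3. Shares over all genes were not taken for these alternatives or for the block below, so the counts only show how calls move.

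With the replicate block the members gave 1, 10, 10, 7 and 4 calls in the order untreated age, young LPS, aged LPS, age under LPS and interaction, and the lists 3 higher and 24 lower between untreated ages, where the main fit gave 1 and 14. The block added Nqo1 (aged LPS and age under LPS) and Prdx1 (interaction) and changed no other call among the members.

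For the lists, untreated age gave 2 higher genes with library sizes alone, 0 at 0.01, and 0 to 2 higher and 8 to 17 lower with 1 batch or 1 library left out. Library sizes alone shifted the median of all genes by -0.23 in young and -0.16 in aged LPS responses and gave 42 and 34 lower list genes, 10 higher ones for age under LPS and 2 for the interaction. At 0.01 age under LPS gave 3 higher genes, and with each batch left out 3 to 6 higher and 14 to 31 lower. The interaction gave 0 higher with no filter, 0 higher and 2 lower at 0.01, and 0 to 1 higher and 0 to 4 lower with each batch left out. The cause was not tested. Nqo1, with 1 to 29 counts, is limited by depth.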
